A study of Homo sapiens and Mus musculus with 21 samples.

Results

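The 31 genes described here encode enzymes of cholesterol and fatty acid synthesis together with the proteins that control them. They were listed by name, with no threshold on a measured value, and make up 31 of the 19848 genes of the hairpin RPKM table. 29 of the 31 had a value among the 23037 genes of the ciclopirox table, and CYP51A1 and EBP were not analysed there. In mouse thymus 30 had a gene of the same symbol, with CYP51A1 as Cyp51. SCD has several mouse paralogs and was not counted among these.

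Cells build cholesterol from acetyl-CoA through mevalonate, isoprenoid units, squalene and lanosterol, and they build fatty acids from the same acetyl-CoA by way of malonyl-CoA. Both routes are under the transcription factors SREBP-1 and SREBP-2, which are made as membrane proteins of the endoplasmic reticulum: SCAP escorts them to the Golgi for cleavage when sterol is scarce, and INSIG proteins hold SCAP back when sterol is plentiful. Dividing T cells and leukaemia cells use these routes to make membrane, and many of the enzymes carry sterol regulatory elements near their start sites.

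The study asked what acute leukaemia cells lose without the RNA helicase DHX15, an RNA-dependent ATPase that acts in the release of spliced introns. In CUTLL1, a human T-cell acute lymphoblastic leukaemia line, poly(A)+ RNA was sequenced from 3 libraries with the lentiviral hairpin shDHX15-1, 3 with shDHX15-2 and 3 with a hairpin against GFP (shGFP), and from 3 libraries each of cells given ciclopirox, a hydroxypyridone antifungal and iron chelator, or DMSO as its vehicle. A list of RNA regions recovered with a DHX15 antibody (RNA immunoprecipitation, RIP) came from the same line, and droplet single-cell libraries came from thymocytes of 6-week-old Dhx15 KO and Dhx15 flox (Dhx15fl/fl) mice, 1 library each. The ciclopirox table names a dose of 5 µM; the sources used here do not give the hours of treatment, the Cre line behind the KO, the deleted exon or the number of pooled mice. Nothing in the labels says that the 3 libraries of a group came from separate cultures, so the p-values below measure the spread between those libraries, which may be technical.

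The hairpin libraries held 59702150 to 62633707 reads and the ciclopirox experiment 32451469 to 37177509. CUTLL1 carried its T-lineage markers in every library, with 7 of 8 listed in the hairpin table and a summed level of 779 to 789 RPKM with shDHX15-1, 862 to 885 RPKM with shDHX15-2 and 683 to 721 RPKM with shGFP. Of 12 markers of other cells 3 were listed, summing to 49.6 to 50.9 RPKM with shDHX15-1, 79.1 to 80.6 RPKM with shDHX15-2 and 44.5 to 46.6 RPKM with shGFP. CSF1R, of macrophages, was near 0, while CD79A, of B cells, and PECAM1 made up the sum, and their part in the results was not tested. In the ciclopirox experiment all 8 T-lineage markers were listed, and the 8 listed markers of other cells summed to 6688 to 7103 normalised counts with ciclopirox and 6954 to 7934 normalised counts with DMSO. In bulk RNA, fewer cells of a type and less RNA per cell cannot be told apart.

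The targeted gene fell with both hairpins. DHX15 stood at 17.1, 17.3 and 16.5 RPKM with shDHX15-1 and 16.1, 16.5 and 16.8 RPKM with shDHX15-2, against 42.8, 44.1 and 43.2 RPKM with shGFP. All 6 knockdown libraries lay below all 3 shGFP libraries, and the log2 fold change was −1.30 ± 0.025 (SE, adjusted p = 1.06e-09) with shDHX15-1 and −1.34 ± 0.025 (SE, adjusted p = 1.83e-09) with shDHX15-2. Here and below a fold change from the hairpin table is on the log2(RPKM + 1) scale, tested with limma over 15022 genes with Benjamini-Hochberg adjustment, and a gene is called at an adjusted p under 0.05.

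Most genes of the pathway fell when DHX15 was knocked down. With shDHX15-1, 28 of the 31 were called, against 74.3% of all tested genes: 27 fell, against 28.9% called lower, and 1 rose, against 45.4% called higher. With shDHX15-2, 29 of the 31 were called, against 65.7% of all tested genes: 27 fell, against 30.1%, and 2 rose, against 35.6%. The median log2 fold change of the 31 was −0.46 with shDHX15-1 and −0.44 with shDHX15-2, while the median over all tested genes was 0.087 and 0.027. Centring each library on its median gene shifted the shDHX15-1 values of all genes by −0.11 and turned the count of all called genes from 6822 higher and 4340 lower into 5058 higher and 5940 lower; 28 of the 31 were then called lower with each hairpin. Both hairpins were set against the same 3 shGFP libraries, so the 2 comparisons are not independent of each other. Summed over the 31, the level was 575 to 579 RPKM with shDHX15-1 and 615 to 617 RPKM with shDHX15-2, against 966 to 981 RPKM with shGFP. The sum is carried by a few abundant members: with shGFP, SCD averaged 187 ± 2.02 RPKM, INSIG1 108 ± 2.02 RPKM and FASN 91.4 ± 3.01 RPKM (SD, n = 3 each). At the low end in shGFP, ACSS2 was the lowest of the 31, with an average of 3.62 ± 0.38 RPKM (SD, n = 3). Above it MVK averaged 4.57 ± 0.28, CYP51A1 4.09 ± 0.26, ELOVL6 4.09 ± 0.17 and SC5D 4.07 ± 0.029 RPKM (SD, n = 3 each), and the last 3 of these did not differ beyond their spread.

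**Figure D1:**
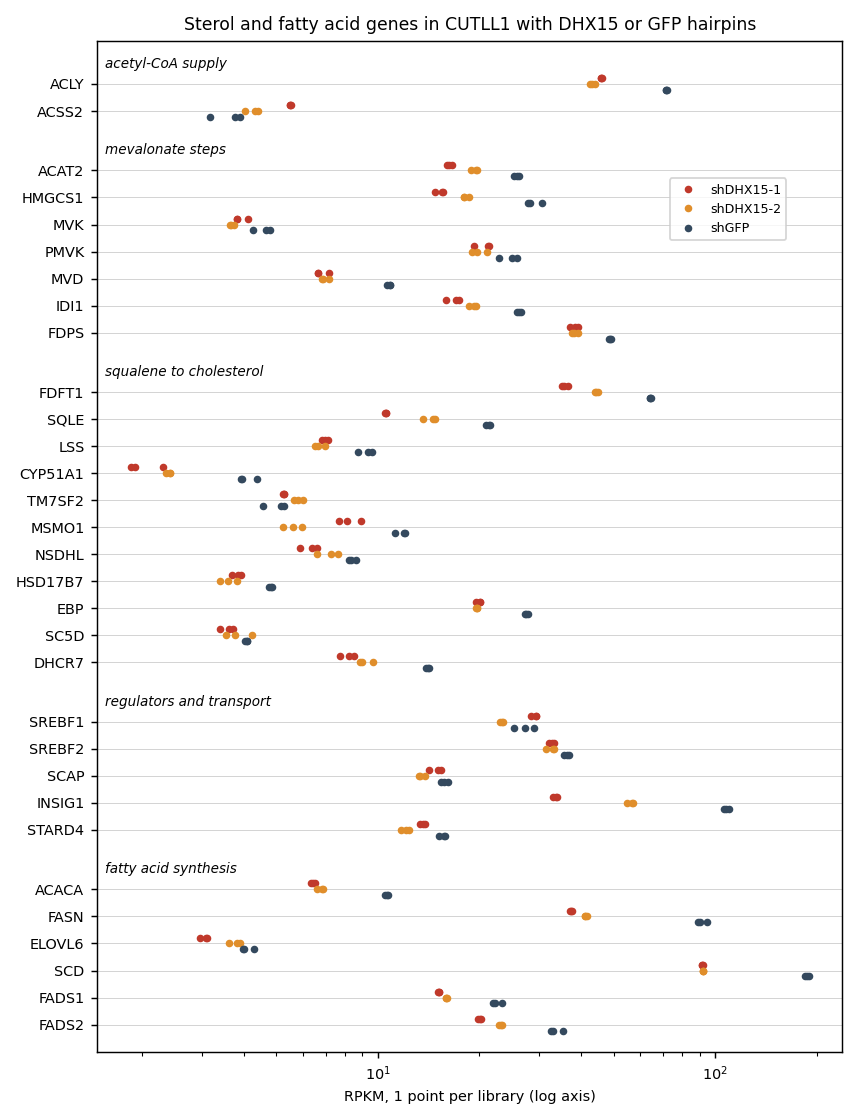
Level of the 31 genes in the hairpin experiment in RPKM on a log axis, 1 point per library, by group (shDHX15-1, shDHX15-2 and shGFP, 3 libraries each), with the genes grouped by role. For most genes both knockdown groups sit left of the shGFP points, as for SCD at 91.5 and 92.1 RPKM against 187 RPKM, and ACSS2 sits to the right.

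Sterol regulatory elements are the letters that SREBP proteins are known to bind, so the start regions of the 31 were searched for them. RefSeq promoter windows on GRCh38.p14, each covering 250 bases before to 50 after a gene's start, were found for 27 of the 31; ACAT2, FDFT1, SQLE and FASN had no entry. The classic element TCACNCCAC, read on both strands, stood in the window of 1 of the 27, SREBF2, and in 379 of 27305 genes (1.39%). The palindromic form TCACGTGA stood in that of 1 of the 27, INSIG1, and in 321 genes (1.18%). The CCAAT box, the letters read by NF-Y, a common partner of SREBP, stood in 21 of the 27 (77.8%), against 10846 of 27305 genes (39.7%). These motifs do not contain one another, a match is a description of the letters and not a binding site, and an absent match says only that the letters are not in this window. The windows of both genes with a sterol element are printed because they hold it, and that of SCD, the most abundant of the 31, because of its fall, a choice made after its values were seen. Capitals mark the motif letters on the gene's strand, where ATTGG is CCAAT on the other strand.
SREBF2, chr22:41832855-41833154, + strand: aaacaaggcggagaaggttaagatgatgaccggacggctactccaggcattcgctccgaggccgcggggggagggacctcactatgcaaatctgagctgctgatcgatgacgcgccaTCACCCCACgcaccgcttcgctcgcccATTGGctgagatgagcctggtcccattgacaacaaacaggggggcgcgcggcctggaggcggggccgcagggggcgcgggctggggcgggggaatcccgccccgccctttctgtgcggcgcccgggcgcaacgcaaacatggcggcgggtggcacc
INSIG1, chr7:155297628-155297927, + strand: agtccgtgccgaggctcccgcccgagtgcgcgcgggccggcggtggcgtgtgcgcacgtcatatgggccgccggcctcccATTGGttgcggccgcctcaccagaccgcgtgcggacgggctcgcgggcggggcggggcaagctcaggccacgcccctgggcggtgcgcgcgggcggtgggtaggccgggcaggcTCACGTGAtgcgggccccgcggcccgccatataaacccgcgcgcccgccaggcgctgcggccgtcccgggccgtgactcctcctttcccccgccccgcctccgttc
SCD, chr10:100346983-100347282, + strand: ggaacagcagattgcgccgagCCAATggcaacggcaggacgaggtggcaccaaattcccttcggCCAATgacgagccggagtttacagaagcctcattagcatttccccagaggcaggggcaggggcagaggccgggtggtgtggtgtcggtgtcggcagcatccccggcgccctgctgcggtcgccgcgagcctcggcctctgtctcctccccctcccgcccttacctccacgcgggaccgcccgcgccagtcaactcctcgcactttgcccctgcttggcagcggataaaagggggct
In SREBF2 the first base of the sterol element lay 133 bases before the start, and a CCAAT box on the other strand 106 bases before it. In INSIG1 the palindromic element lay 56 bases before the start and a CCAAT box on the other strand 170 bases before it. SCD held a pair of CCAAT boxes on the gene's own strand, 229 and 186 bases before the start.

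The 2 enzymes that supply acetyl-CoA moved in opposite directions. ACLY, which cuts citrate into acetyl-CoA in the cytosol, stood at 45.9, 46.1 and 46.01 RPKM with shDHX15-1 and 44.1, 42.6 and 43.1 RPKM with shDHX15-2, against 71.5, 71.6 and 72.02 RPKM with shGFP. ACSS2, which makes acetyl-CoA from acetate, stood at 5.54, 5.49 and 5.47 RPKM with shDHX15-1 and 4.33, 4.03 and 4.41 RPKM with shDHX15-2, against 3.77, 3.89 and 3.18 RPKM with shGFP. All 6 knockdown libraries were below the shGFP libraries for ACLY and above them for ACSS2, with no overlap. The log2 fold change of ACLY was −0.63 ± 0.017 (SE, adjusted p = 6.32e-09) with shDHX15-1 and −0.72 ± 0.017 (SE, adjusted p = 6.21e-09) with shDHX15-2, and that of ACSS2 was 0.50 ± 0.058 (SE, adjusted p = 4.63e-05) and 0.19 ± 0.058 (SE, adjusted p = 0.0169). The call of ACSS2 with shDHX15-2 ended without shDHX15-2 replicate 3 (log2 fold change 0.12 to 0.23 over all single libraries left out), after median centring and after quantile normalisation. ACSS2 was the only one of the 31 called higher with shDHX15-1.

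All 7 genes of the mevalonate steps fell with each hairpin, and in each of the 7 both knockdown groups lay wholly below shGFP. How many of all tested genes were separated in this way was not counted, so the separation is not shown to be particular to these genes. HMGCS1, which joins acetyl-CoA to acetoacetyl-CoA, had 15.6, 15.5 and 14.8 RPKM with shDHX15-1 and 18.04, 18.6 and 18 RPKM with shDHX15-2, against 28.2, 27.9 and 30.7 RPKM with shGFP. Its log2 fold change was −0.88 ± 0.038 (SE, adjusted p = 8.76e-08) with shDHX15-1 and −0.64 ± 0.038 (SE, adjusted p = 1.09e-06) with shDHX15-2, the largest fall of the 7 with each hairpin. ACAT2, the thiolase that makes the acetoacetyl-CoA, changed by −0.63 and −0.39. MVD, the decarboxylase that gives the first isoprenoid unit, had 6.66, 7.18 and 6.64 RPKM with shDHX15-1 and 6.82, 6.87 and 7.17 RPKM with shDHX15-2, against 10.9, 10.9 and 10.6 RPKM with shGFP, with no overlap between the knockdown and shGFP libraries. IDI1, which interconverts the isoprenoid units, had 17.1, 15.96 and 17.4 RPKM with shDHX15-1 and 18.6, 19.3 and 19.6 RPKM with shDHX15-2, against 25.9, 26.3 and 26.5 RPKM with shGFP. The log2 fold change of MVD was −0.59 ± 0.034 (SE, adjusted p = 4.31e-07) with shDHX15-1 and −0.57 ± 0.034 (SE, adjusted p = 1.05e-06) with shDHX15-2, and that of IDI1 −0.61 ± 0.033 (SE, adjusted p = 3.30e-07) and −0.44 ± 0.033 (SE, adjusted p = 4.83e-06). FDPS, which assembles farnesyl diphosphate, fell by less, with log2 fold changes of −0.34 and −0.35. The smallest falls were those of both kinases of the route, PMVK with −0.24 and −0.29 and MVK with −0.18 and −0.25.

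From squalene to cholesterol, 10 of 11 genes fell with shDHX15-1 and 9 of 11 with shDHX15-2, and 1 rose with shDHX15-2. FDFT1, which joins farnesyl units into squalene and so commits them to sterol, had 36.5, 35.7 and 35.1 RPKM with shDHX15-1 and 44.2, 43.99 and 44.8 RPKM with shDHX15-2, against 64.2, 64.7 and 64.2 RPKM with shGFP. SQLE, the epoxidase that follows it, had 10.5, 10.6 and 10.5 RPKM with shDHX15-1 and 14.6, 14.7 and 13.6 RPKM with shDHX15-2, against 21.5, 21.3 and 20.9 RPKM with shGFP. Both genes were lowest with shDHX15-1, intermediate with shDHX15-2 and highest with shGFP, without overlap between any pair of groups. For FDFT1 the log2 fold change was −0.83 ± 0.019 (SE, adjusted p = 2.15e-09) with shDHX15-1 and −0.53 ± 0.019 (SE, adjusted p = 6.01e-08) with shDHX15-2, and for SQLE −0.95 ± 0.030 (SE, adjusted p = 1.53e-08) and −0.54 ± 0.030 (SE, adjusted p = 7.87e-07). LSS, which closes the ring system into lanosterol, changed by −0.36 and −0.41.

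The demethylases that trim lanosterol also fell. CYP51A1, the first of them, stood at 1.899, 2.305 and 1.85 RPKM with shDHX15-1 and 2.42, 2.41 and 2.36 RPKM with shDHX15-2, against 3.94, 4.39 and 3.95 RPKM with shGFP, and its log2 fold change was −0.76 ± 0.061 (SE, adjusted p = 4.12e-06) and −0.58 ± 0.061 (SE, adjusted p = 3.46e-05). MSMO1, the methyl sterol oxidase, stood at 7.67, 8.11 and 8.93 RPKM with shDHX15-1 and 5.95, 5.22 and 5.61 RPKM with shDHX15-2, against 12.01, 11.9 and 11.2 RPKM with shGFP. In MSMO1 the order of the hairpins was the other way round from that of SQLE, with shDHX15-2 lowest and no overlap among the 3 groups, and the log2 fold change was −0.46 ± 0.058 (SE, adjusted p = 7.40e-05) with shDHX15-1 and −0.95 ± 0.058 (SE, adjusted p = 1.23e-06) with shDHX15-2. NSDHL and HSD17B7, which complete the removal of the methyl groups, changed by −0.37 and −0.27 with shDHX15-1 and by −0.20 and −0.33 with shDHX15-2. DHCR7, the last enzyme of one branch to cholesterol, had 7.72, 8.21 and 8.51 RPKM with shDHX15-1 and 9.69, 8.86 and 8.95 RPKM with shDHX15-2, against 14.1, 13.9 and 14.1 RPKM with shGFP. All 6 knockdown libraries were below shGFP, and the log2 fold change of DHCR7 was −0.72 ± 0.040 (SE, adjusted p = 4.11e-07) and −0.57 ± 0.040 (SE, adjusted p = 3.32e-06); EBP, the sterol isomerase upstream of it, changed by −0.45 and −0.47. SC5D, the sterol desaturase between EBP and DHCR7, had a smaller fall of −0.15 ± 0.052 (SE, adjusted p = 0.0263) with shDHX15-1 and a value of −0.069 ± 0.052 (SE, adjusted p = 0.273) with shDHX15-2 that did not pass. Its shDHX15-1 call ended without any shGFP library and without shDHX15-1 replicate 1 or 3, with values of −0.17 to −0.12. TM7SF2, a sterol reductase whose reaction LBR also carries out, had 0.060 ± 0.046 (SE, adjusted p = 0.264) with shDHX15-1, which did not pass and turned negative after median centring (−0.048), quantile normalisation (−0.079) and in the fits to recovered reads, and rose by 0.19 ± 0.046 (SE, adjusted p = 0.00637) with shDHX15-2, a call that was lost after median centring.

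Among the regulators, INSIG1, the sterol-sensing anchor of SCAP, fell most and differed most between the hairpins. It stood at 33.97, 33.6 and 33.1 RPKM with shDHX15-1 and 57.02, 54.8 and 56.7 RPKM with shDHX15-2, against 106, 107 and 110.0 RPKM with shGFP. The 3 groups were apart, with shDHX15-1 lowest and shDHX15-2 between it and shGFP, and the log2 fold change was −1.65 ± 0.022 (SE, adjusted p = 1.28e-10) with shDHX15-1 and −0.93 ± 0.022 (SE, adjusted p = 6.21e-09) with shDHX15-2. SREBF2, the gene of SREBP-2, had 33.4, 32.2 and 32.9 RPKM with shDHX15-1 and 31.6, 33.03 and 33.2 RPKM with shDHX15-2, against 35.7, 36.8 and 36.4 RPKM with shGFP, and all knockdown libraries lay below shGFP although the size was small, with log2 fold changes of −0.14 ± 0.025 (SE, adjusted p = 6.70e-04) and −0.15 ± 0.025 (SE, adjusted p = 5.85e-04). SREBF1, the gene of SREBP-1, had 29.3, 28.4 and 29.5 RPKM with shDHX15-1 and 22.97, 23.3 and 23.5 RPKM with shDHX15-2, against 27.3, 25.4 and 28.96 RPKM with shGFP. SREBF1 passed only with shDHX15-2, at −0.22 ± 0.041 (SE, adjusted p = 0.00142), and its value with shDHX15-1 was 0.094 ± 0.041 (SE, adjusted p = 0.0655), which turned negative after median centring (−0.014). SCAP likewise had −0.079 with shDHX15-1 (adjusted p = 0.0521) and −0.22 with shDHX15-2 (adjusted p = 3.67e-04). STARD4, a carrier of cholesterol between membranes, changed by −0.19 and −0.35, both past the test.

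All 6 fatty acid genes fell with shDHX15-1 and 5 of the 6 with shDHX15-2, and the summed level of the 6 was 173 to 174 RPKM with shDHX15-1 and 183 RPKM with shDHX15-2, against 347 to 354 RPKM with shGFP. FASN, the multi-enzyme synthase that makes palmitate, had 37.4, 37.1 and 37.5 RPKM with shDHX15-1 and 41.2, 41.3 and 41.6 RPKM with shDHX15-2, against 90.3, 89.02 and 94.8 RPKM with shGFP. SCD, which puts the first double bond into palmitoyl- and stearoyl-CoA, had 91.4, 91.8 and 91.3 RPKM with shDHX15-1 and 91.8, 92.2 and 92.3 RPKM with shDHX15-2, against 187, 189 and 185 RPKM with shGFP. Both genes lay far below shGFP in all 6 knockdown libraries, and the hairpins were close to each other: FASN had −1.27 ± 0.023 (SE, adjusted p = 7.41e-10) with shDHX15-1 and −1.12 ± 0.023 (SE, adjusted p = 2.88e-09) with shDHX15-2, and SCD −1.02 ± 0.015 (SE, adjusted p = 2.16e-10) and −1.01 ± 0.015 (SE, adjusted p = 3.95e-10). ACACA, the carboxylase that makes malonyl-CoA, changed by −0.65 and −0.58, and the polyunsaturated fatty acid desaturases FADS1 and FADS2 by −0.54 and −0.72 with shDHX15-1 and −0.47 and −0.52 with shDHX15-2. ELOVL6, the elongase that extends palmitate, fell with shDHX15-1, at −0.33 ± 0.039 (SE, adjusted p = 5.46e-05) and had −0.092 ± 0.039 (SE, adjusted p = 0.0645) with shDHX15-2, just outside the threshold. The spans of FADS1 and FADS2 overlap at their starts, and the sources used here do not say whether reads were counted by strand, so reads there could belong to either gene.

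Set directly against each other, the hairpins differed in 21 of the 31, against 61.1% of all tested genes: 15 were higher with shDHX15-2 than with shDHX15-1, against 23.2%, and 6 were lower, against 37.9%. After median centring 19 of the 31 were higher and 4 lower, and over all tested genes 4865 were higher and 4133 lower, against 3484 and 5693 without it. The median difference over the 31 was 0.066, against −0.056 over all tested genes. The largest differences, as log2 fold change of shDHX15-2 over shDHX15-1, were INSIG1 with 0.73 ± 0.022 (SE, adjusted p = 5.25e-08), MSMO1 with −0.49 ± 0.058 (SE, adjusted p = 1.004e-04) and SQLE with 0.41 ± 0.030 (SE, adjusted p = 5.89e-06). SREBF1 with −0.31, ACSS2 with −0.31 and FDFT1 with 0.30 followed, all called. DHX15 itself differed between the hairpins by −0.040 ± 0.025 (SE, adjusted p = 0.2002), which did not pass.

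The ciclopirox libraries are described with one limit first: DMSO replicate 1 stood apart from the other DMSO libraries, with a chi-square per degree of freedom over genes of 44.5 and 45.6 against replicates 2 and 3, which differed from each other by 3.47. The ciclopirox libraries differed among themselves by 16.7 to 32.9 on the same measure, and the hairpin groups by 2.77 to 7.43. DHX15 itself had 9218, 8967 and 10216 normalised counts with ciclopirox, against 14498, 16688 and 16311 normalised counts with DMSO, a log2 fold change of −0.74 ± 0.092 (SE, adjusted p = 8.70e-05), with limma on log2(normalised count + 1) over 16825 genes.

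With ciclopirox the pathway split: ACSS2, 3 of 7 mevalonate genes, 4 of 9 later sterol genes and 3 of 5 regulators rose, and ACLY and 4 of 6 fatty acid genes fell. Of 29 genes tested, 20 were called, against 48.5% of all tested genes: 12 rose, against 23.5%, and 8 fell, against 25%. The median log2 fold change of the 29 was 0.038, against −0.016 over all tested genes. The share of higher calls rests on the scaling and on single libraries: after median centring 6 rose and 11 fell, and without DMSO replicate 2, DMSO replicate 3 or ciclopirox replicate 1 the count that rose was 6, 7 and 7. Without DMSO replicate 1, 13 rose and 9 fell. Over all 16825 tested genes 3956 rose and 4201 fell, against 3350 and 5011 after median centring and 4482 and 4573 without DMSO replicate 1. Without DMSO replicate 2, DMSO replicate 3 or ciclopirox replicate 1, 3335, 3362 and 3128 of all genes rose. FASN had 18799.9, 21808 and 18408 normalised counts with ciclopirox, against 43188, 34286 and 33725 normalised counts with DMSO. ACLY had 10850.1, 12172 and 11249.5 normalised counts with ciclopirox, against 18611, 17019.5 and 16444 normalised counts with DMSO. In both genes every ciclopirox library lay below every DMSO library, with log2 fold changes of −0.91 ± 0.11 (SE, adjusted p = 8.73e-05) for FASN and −0.60 ± 0.088 (SE, adjusted p = 2.49e-04) for ACLY. ACACA fell by 0.61 and ELOVL6 by 0.61 on the log2 scale, SCD by 0.35 (adjusted p = 0.00365), while FADS1 rose by 0.26 (adjusted p = 0.0178). SQLE had 3974, 4067 and 4074 normalised counts with ciclopirox, against 6279, 6297 and 6352 normalised counts with DMSO, and at −0.64 ± 0.080 (SE, adjusted p = 9.00e-05) it was the one gene of the squalene-to-cholesterol group that fell. PMVK, at −0.38, was the one of the mevalonate group that fell, and its call ended without ciclopirox replicate 1 or 3 (−0.45 to −0.29 over all single libraries left out) and after quantile normalisation. Quantile normalisation also ended the call of SCD.

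Opposite to these, ACSS2 had 1777, 1883 and 1754 normalised counts with ciclopirox, against 806, 696 and 551 normalised counts with DMSO. TM7SF2 had 1139, 1118 and 921 normalised counts with ciclopirox, against 484, 344 and 406 normalised counts with DMSO. Every ciclopirox library lay above every DMSO library in both, with log2 fold changes of 1.41 ± 0.14 (SE, adjusted p = 1.73e-05) for ACSS2 and 1.37 ± 0.15 (SE, adjusted p = 3.79e-05) for TM7SF2. MVD had 5501, 5968 and 4738 normalised counts with ciclopirox, against 3912, 3001 and 2933 normalised counts with DMSO, a rise of 0.73 ± 0.13 (SE, adjusted p = 8.94e-04). Also higher were MVK (0.50), FDPS (0.40), LSS (0.47), HSD17B7 (0.35), DHCR7 (0.37), STARD4 (0.49), SREBF1 (0.38) and SREBF2 (0.30). After median centring the calls of HSD17B7, DHCR7, STARD4, SREBF1, SREBF2 and FADS1 ended. These calls also ended without single libraries, those of DHCR7, SREBF1 and SREBF2 without DMSO replicate 2 or 3 or ciclopirox replicate 1 or 2, and that of HSD17B7 without DMSO replicate 2 or 3 or ciclopirox replicate 1 or 3. The call of STARD4 ended without DMSO replicate 1 or 2 or ciclopirox replicate 1 or 3, and that of FADS1 without DMSO replicate 2 or 3 or ciclopirox replicate 2 or 3. With single libraries left out the log2 fold change was 0.30 to 0.41 for HSD17B7, 0.29 to 0.51 for DHCR7, 0.32 to 0.64 for STARD4, 0.29 to 0.51 for SREBF1, 0.23 to 0.38 for SREBF2 and 0.24 to 0.28 for FADS1. INSIG1 fell by 0.30 on the log2 scale (adjusted p = 0.00983), a call that ended after quantile normalisation, where its value was 0.020. HMGCS1 (−0.20), IDI1 (0.038), FDFT1 (−0.18), MSMO1 (−0.0042), NSDHL (0.029), SC5D (−0.066), ACAT2 (0.23), SCAP (−0.28) and FADS2 (0.13) did not pass.

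The hairpin and ciclopirox experiments have separate controls, so no shared control library links their values. Their scales differ: log2(RPKM + 1) understates the change of genes at a few RPKM, while the ciclopirox values are log2(normalised count + 1) of far larger numbers. Directions can be set side by side, but sizes are not on a matched scale. Of the 29 genes in both, 8 fell with the mean of both hairpins and with ciclopirox (27.6%, against 17.8% of 10659 genes tested in both), and 9 were called lower with the hairpins and higher with ciclopirox (31%, against 3.12%). Of these, MVK, MVD, FDPS and LSS stayed called with ciclopirox after median centring and with any single library left out, and HSD17B7, DHCR7, STARD4, SREBF2 and FADS1 lost that call. ACSS2 and TM7SF2 were called higher in both (6.9%, against 15.7%), but the hairpin call of TM7SF2 (0.12 ± 0.040 (SE, adjusted p = 0.0205)) was lost after median centring, after quantile normalisation, in the edgeR and DESeq2 fits and without shGFP replicate 3. Across the 29 genes, the log2 fold changes of the 2 experiments had a Pearson r of 0.64 and a Spearman rho of 0.53, and across all 10659 genes 0.44 and 0.46; these describe genes of the same libraries, which are not independent of each other. MVD shows the contrast most plainly, at −0.58 with the mean of both hairpins and 0.73 with ciclopirox, whereas FASN stood at −1.20 and −0.91.

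**Figure D2:**
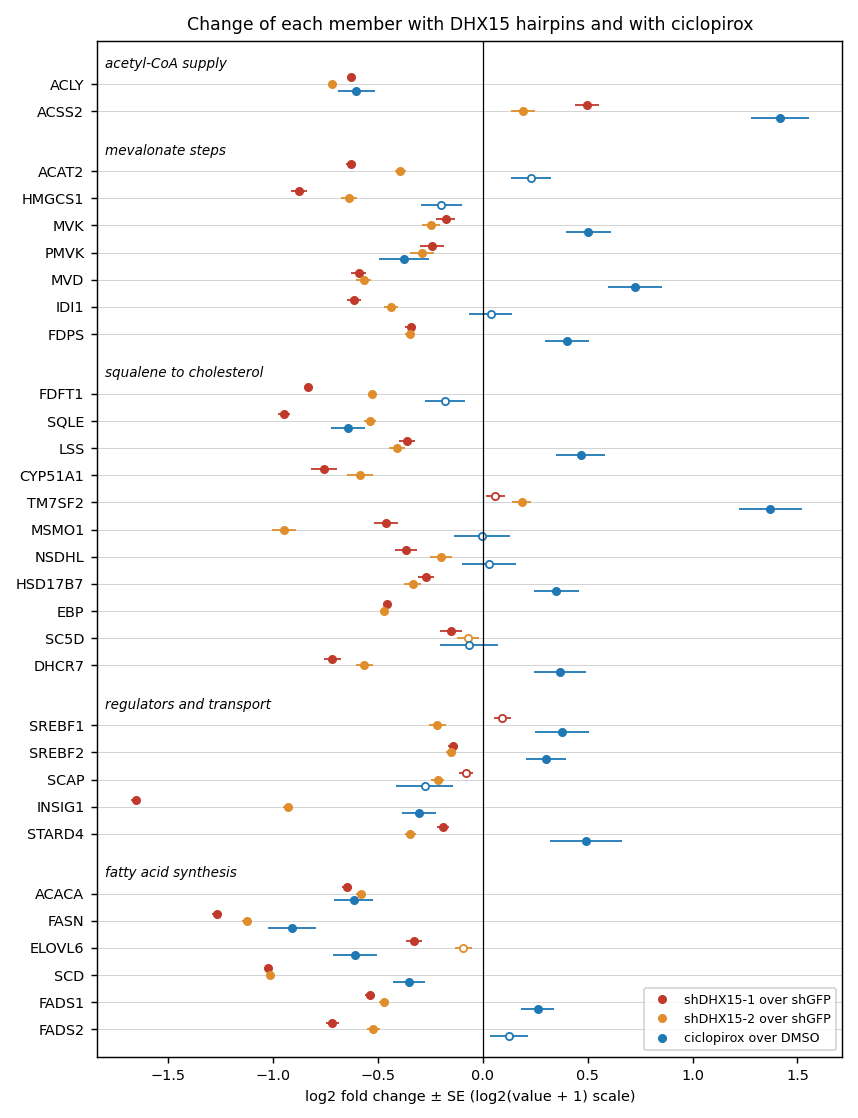
Log2 fold change of each gene with its SE, for shDHX15-1 and shDHX15-2 over shGFP and for ciclopirox over DMSO (3 libraries per group), with genes grouped by role. The hairpin points of nearly all genes lie left of 0, INSIG1 with shDHX15-1 farthest at −1.65, while ciclopirox points lie on both sides, from −0.91 for FASN to 1.41 for ACSS2.

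Genes around the 31 did not move as one. Across the 7 lists described next, the median log2 fold change ran from −0.12 to 0.14 with the mean of both hairpins, against 0.056 over all tested genes, and from −0.37 to 0.27 with ciclopirox, against −0.016. With the mean of both hairpins, 5 of 9 sterol-sensing and SREBP-processing genes rose, 3 fell and 1 did not pass, against 72.9% of all tested genes called, 42.6% higher and 30.2% lower. SPRING1 (−0.28), needed for SREBP cleavage, fell, and INSIG2 (0.22), a relative of INSIG1, rose. With ciclopirox 1 of the 9 rose and 5 fell, against 23.5% of all tested genes called higher and 25% called lower. SPRING1 (−0.73), the site-2 protease MBTPS2 (−0.71) and RNF139 (−0.48) were among those that fell. The same hairpin and ciclopirox shares apply to the counts of the lists that follow. Of 7 accessory enzymes and electron donors, 1 rose (POR, 0.23) and 3 fell with the hairpins (CYB5B, −0.37; CYB5R3, −0.31; LBR, −0.25), and with ciclopirox LBR fell (−0.95) and ERG28 rose (0.44). A further list joined genes of LXR receptors and their targets with those of sterol export. Of its 4 genes tested with the hairpins, ABCG1 (−0.33) and LPCAT3 (−0.11) were called lower for the mean of both hairpins. Of its 6 genes tested with ciclopirox, ABCG1 rose (0.79). The value of ABCG1 was −0.044 with shDHX15-1, which did not pass, and −0.62 with shDHX15-2, and LPCAT3 rose with shDHX15-1 (0.12) and fell with shDHX15-2 (−0.34). Of 8 trafficking and storage genes, 2 rose and 3 fell with the hairpins, NPC1 (0.26), GRAMD1A (0.22), NCEH1 (−0.19) and LIPA (−0.19) among them, and 2 rose and 1 fell with ciclopirox (STARD3, 0.55; NPC1, 0.41; GRAMD1A, −0.45). Of 9 genes of other isoprenoid branches, 2 rose and 3 fell with the hairpins, with FNTA (0.43), a farnesyltransferase subunit, higher and DHDDS (−0.42), NUS1 (−0.40) and PDSS2 (−0.21) lower; 1 rose and 4 fell with ciclopirox, NUS1 (−1.42), GGPS1 (−1.41), PDSS1 (−0.85) and FNTB (0.80) being the largest.

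The wider fatty acid genes and those of oxidation were called in both directions. Of 16 other synthesis, elongation and activation genes, 3 rose, against 42.6% of all tested genes, and 10 fell, against 30.2%, with the mean of both hairpins (median −0.12): ACSL4 (−0.62), an acyl-CoA synthetase of polyunsaturated fatty acids, fell, and ACACB (0.45), the mitochondrial carboxylase, OXSM (0.33) and ACSL5 (0.28) rose. With ciclopirox 4 of 17 rose, against 23.5%, and 5 fell, against 25%, led by FADS3 (2.39), ACACB (1.94), SCD5 (1.12) and ACSL4 (−0.86). Of 13 oxidation genes 7 rose and 4 fell with the hairpins, against the same 42.6% and 30.2%, including the acyl-CoA dehydrogenases ACADVL (0.64) and ACADS (0.38), HADH (0.31) and the transcription factor PPARA (−0.20). PPARA had −0.032 with shDHX15-1 and −0.36 with shDHX15-2. With ciclopirox 6 of 14 rose and 1 fell, against 23.5% and 25%, with PPARA at 0.92, ACADS at 0.63, HADH at 0.60 and CPT1A, the carnitine palmitoyltransferase of fatty acid entry, at 0.47.

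DHX15 RIP peaks lay in the spans of 11 of the 31 genes (35.5%), against 24.2% of 11362 tested genes with a span. The labels give 2 RIP libraries with the DHX15 antibody, 1 with IgG and 1 of input. Which of them the authors compared to make the peaks, and so the reference of the fold, is not stated. The authors gave 1 list of 4499 peaks, so there are no replicate values, and a fold or FDR is the authors' own value for that peak. At an authors' FDR under 0.001, 10 of the 31 (32.3%) and 15.4% of genes held a peak, and counting only peaks on the gene's own strand 8 of 27 (29.6%) and 23.7% did. FADS1 and FADS2, which lie head to head on chromosome 11, had 5 peaks each, 1 of them shared: on GRCh38, chr11:61814898-61816380, on the FADS1 strand, with an authors' fold of 2.25 and an FDR of 2.89e-05. FDPS had 4 peaks, with authors' folds of 1.504 to 1.61, the last on the strand of RUSC1-AS1. LSS had 3, the highest at chr21:46189165-46189340 with an authors' fold of 2.39, and SREBF1 had 3, one of them 16380 bases long. MVD and HSD17B7 had 2 each, and FDFT1 and SREBF2 had 1 each. The single peaks of MVK (authors' fold 1.84) and DHCR7 (2.55) lay on the opposite strand, at MMAB and the divergent transcript DHCR7-DT. INSIG1, FASN, SCD, HMGCS1 and SQLE, the genes with the largest falls over the mean of both hairpins on the log2(RPKM + 1) scale, had none in this list. CYP51A1, a low gene whose fall that scale understates, also had none. Exon and intron positions were not used here.

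In the thymus the genotypes were 1 library each, so no test was made. Values are UMIs summed over cells and scaled to CPM, the count of a gene relative to the library or class total, with exact 95% Poisson intervals, which cover counting error only. A gene was counted as past the size threshold at a ratio of 1.5 with at least 30 UMIs over both libraries. The libraries kept 7261 of 8484 barcodes from Dhx15 KO and 8818 of 9434 from Dhx15 flox, with medians of 7197 and 3710 UMIs, and 17 barcodes occurred in both. They also differed in make-up: clusters made without the 31 genes placed 15.7% of Dhx15 KO cells and 1.29% of Dhx15 flox cells in the DN2-3-like class (Il2ra, Hes1), 36.1% and 45.2% in the DP-like class (Cd4, Cd8a, Rag1), 13.3% and 6.91% in the cycling-like class (Mki67, Top2a), 4.09% and 14.4% in the signalled-like class (Cd69, Egr1, Nr4a1), and 16.0% and 2.18% in cluster 0, left unnamed and led by Ung, Cdc6 and Hells. Cluster 6, with 93 Dhx15 KO and 1775 Dhx15 flox cells, had every DP marker raised but was also left unnamed. The DP-like shares leave it out. Summed markers of other cells were higher in the Dhx15 KO library, at 114 and 51.8 CPM for macrophages, 42.1 and 16.0 CPM for epithelium, 65.3 and 51.9 CPM for B cells and 55.0 and 17.1 CPM for erythroid cells in Dhx15 KO and Dhx15 flox. Their part in the values below was not tested. Dhx15 had 100.2 CPM (95% interval 97.9 to 102) in the Dhx15 KO library and 181 CPM (177 to 185) in the Dhx15 flox library, and by class 132 and 151 CPM in DN2-3-like, 112 and 177 CPM in DP-like and 83.5 and 202 CPM in cycling-like cells of Dhx15 KO and Dhx15 flox. The deleted exon is not given, so these counts do not check the genotype.

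Over all kept cells, 7 sterol genes and 3 fatty acid genes were higher past the threshold in the Dhx15 KO thymus. These 10 of 30 stand against 15.7% of all genes past it upward, and 1 of 30 was past it downward, against 16.5%, and the median log2 ratio was 0.32, against −0.086 over all genes. Sqle had 25.96 CPM (95% interval 24.8 to 27.1) in the Dhx15 KO library and 12.2 CPM (11.3 to 13.3) in the Dhx15 flox library, a ratio of 2.12 (1.94 to 2.33). Cyp51 had 29.6 CPM (95% interval 28.4 to 30.9) in the Dhx15 KO library and 13.6 CPM (12.6 to 14.6) in the Dhx15 flox library, a ratio of 2.18 (1.999 to 2.38). The intervals of the libraries did not overlap in either gene. Mvd (1.83), Idi1 (1.72), Hsd17b7 (1.72), Lss (1.72), Elovl6 (1.68), Hmgcs1 (1.54), Acaca (1.52) and Fads2 (2.81, from 230 and 55 UMIs) were the others with higher ratios, and Acss2 (0.574) the one that was lower. Srebf1 (0.717, 0.673 to 0.764), Acly (0.851, 0.817 to 0.888), Pmvk (0.8098), Sc5d (0.911), Dhcr7 (0.943) and Tm7sf2 (0.988) also had ratios below 1, short of the threshold. Summed over the 30, the level was 836 CPM in Dhx15 KO and 716 CPM in Dhx15 flox.

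The classes differed in these genes in both libraries, and the libraries differed in make-up as given above. The summed level of the 30 was 976 CPM in Dhx15 KO and 1155 CPM in Dhx15 flox in DN2-3-like cells, 980.3 and 996 CPM in cluster 0, 829 and 856 CPM in cycling-like cells, 648 and 656 CPM in DP-like cells and 566 and 612 CPM in signalled-like cells. Within each of these 5 classes the summed value was lower in Dhx15 KO, while over all kept cells it was higher. No interval was made for these sums, and those of cluster 0 and of DP-like cells lay close together. In cluster 0 the ratio was over 1 in 16 genes and under 1 in 14. The counts over and under 1 were 14 and 15 in DP-like, 13 and 17 in cycling-like, 12 and 16 in signalled-like and 10 and 20 in DN2-3-like cells. Idi1 had 76.4 CPM in Dhx15 KO and 132 CPM in Dhx15 flox in DN2-3-like cells, 99.6 and 121 CPM in cluster 0, 64.9 and 67.1 CPM in cycling-like cells, 24.1 and 15.7 CPM in DP-like cells and 17.4 and 10.2 CPM in signalled-like cells. Sqle had 33.4 and 40.97 CPM in DN2-3-like cells and 9.19 and 4.63 CPM in DP-like cells of Dhx15 KO and Dhx15 flox. Acly was more even, at 69.8 and 87.5 CPM in DN2-3-like cells and 66.8 and 86.1 CPM in DP-like cells. Scd2, a mouse SCD paralog outside the 30, had 190.2 CPM in Dhx15 KO and 249 CPM in Dhx15 flox over all kept cells, and 178 and 325 CPM in DP-like cells.

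**Figure D3:**
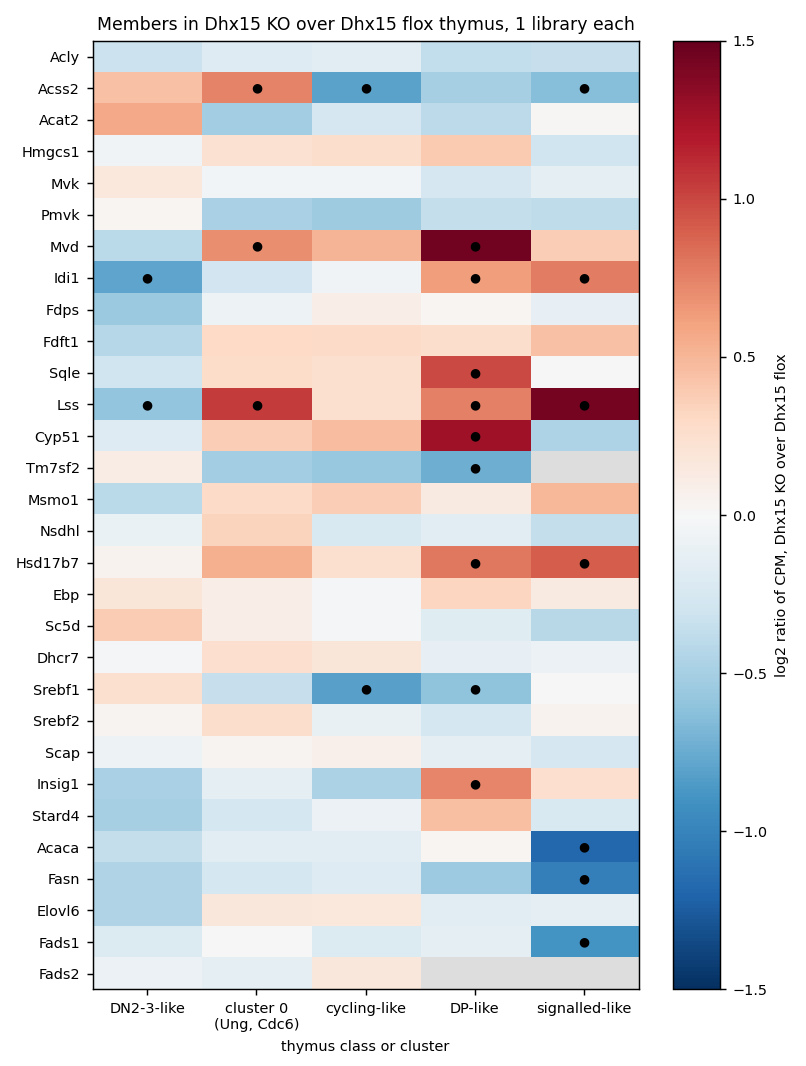
Ratio of Dhx15 KO over Dhx15 flox CPM for each of the 30 genes (down the page) in each thymus class or cluster (across), as a colour on a log2 scale, 1 library per genotype. Sqle and Cyp51 are higher in DP-like cells (1.98 and 2.41). In DN2-3-like cells their ratios are below 1 (0.814 and 0.874). Both Poisson intervals there include 1 (0.618 to 1.09 and 0.656 to 1.18). Thinned to 2000 UMIs, Sqle stood at 0.682 in DN2-3-like cells. Thinned Cyp51 stood at 1.68 there, past the size threshold upward, from 84 UMIs in Dhx15 KO and 5 in Dhx15 flox. The side of 1 on which Cyp51 lies in DN2-3-like cells thus depends on thinning.

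In DP-like cells, 7 of 29 genes were past the threshold upward in Dhx15 KO, against 12.7% of all genes, and 2 downward, against 10.6%, and the median log2 ratio was −0.12, against −0.043 over all genes. Mvd had 14.5 CPM (95% interval 12.5 to 16.9) in the Dhx15 KO library and 5.35 CPM (4.21 to 6.703) in the Dhx15 flox library, a ratio of 2.72 (2.06 to 3.61). Cyp51 had 12.5 CPM (95% interval 10.6 to 14.7) in the Dhx15 KO library and 5.205 CPM (4.08 to 6.54) in the Dhx15 flox library, a ratio of 2.41 (1.81 to 3.23). Their intervals did not overlap between the libraries. Sqle (1.98, 1.45 to 2.74), Hsd17b7 (1.73, 1.18 to 2.55), Lss (1.69, 1.21 to 2.37), Insig1 (1.66, 1.43 to 1.94) and Idi1 (1.54, 1.29 to 1.84) were the others that were higher, each given as ratio and interval, and Srebf1 (0.657, 0.575 to 0.751) and Tm7sf2 (0.6001, 0.337 to 1.04) were lower. With cells thinned to 2000 UMIs, which kept 2507 of 2623 Dhx15 KO and 3626 of 3983 Dhx15 flox cells, Mvd (2.98), Cyp51 (1.95) and Sqle (1.895) were past the threshold upward, and Mvk (0.559), Srebf1 (0.631) and Fads1 (0.5599) downward. Clusters 3 and 4 held most of the Dhx15 KO cells of this class and clusters 7, 8 and 16 most of the Dhx15 flox cells, so genotype and cluster cannot be told apart within it.

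**Figure D4:**
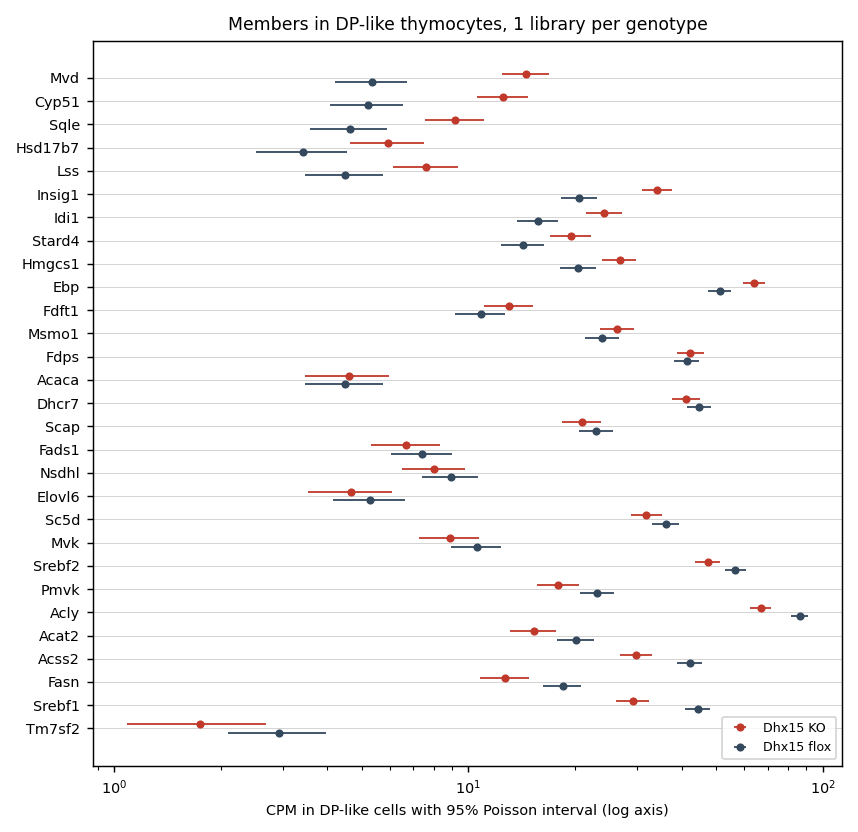
CPM of each gene in DP-like thymocytes on a log axis with its exact 95% Poisson interval, for the Dhx15 KO and the Dhx15 flox library (1 each). Mvd lies at 14.5 CPM in Dhx15 KO and 5.35 CPM in Dhx15 flox, while most genes lie close together.

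The other classes gave these counts before thinning. In DN2-3-like cells (1143 Dhx15 KO and 114 Dhx15 flox cells) 0 of 30 were past it upward, against 10% of all genes, and 2 downward, against 5.56%: Idi1 with 76.4 CPM (95% interval 71.5 to 81.6) in the Dhx15 KO library and 132 CPM (114 to 152) in the Dhx15 flox library, a ratio of 0.579 (0.495 to 0.681), and Lss with a ratio of 0.666 (0.424 to 1.09). In cycling-like cells 0 of 30 were past it upward, against 6.99%, and 2 downward, against 9.12%: Srebf1 (0.568, 0.498 to 0.649) and Acss2 (0.572, 0.457 to 0.715). In signalled-like cells 3 of 28 were past it upward, against 9.05%, with Lss (2.69, 1.38 to 5.098), Hsd17b7 (1.88, 0.837 to 3.93) and Idi1 (1.71, 1.03 to 2.75), and 4 downward, against 10.7%, with Acaca (0.444, 0.0867 to 1.43), Fasn (0.493, 0.318 to 0.735), Fads1 (0.536, 0.206 to 1.18) and Acss2 (0.642, 0.3998 to 0.988). In cluster 0, 3 of 30 were past it upward, against 9.99%, with Lss (2.07, 1.32 to 3.41), Acss2 (1.67, 1.11 to 2.61) and Mvd (1.62, 1.14 to 2.37), and 0 downward, against 5.25%. Several of these ratios rest on few UMIs, as the width of their intervals shows. Thinned to 2000 UMIs, the counts were 4 up and 7 down in DN2-3-like, 4 up and 5 down in cycling-like and 1 up and 5 down in signalled-like cells, and 4 up and 3 down in cluster 0. The share over all genes was not counted after thinning in any class, so these counts have nothing to be set against. Some rest on very few UMIs, as Ebp in DN2-3-like cells with 88 in Dhx15 KO and 2 in Dhx15 flox.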

How the data were processed

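Hairpin values are RPKM per gene made by the authors, per the file headers, and ciclopirox values are the authors' deposited normalised signal, in which the values show counts divided by a factor per library. Whole reads were recovered for 19747 of 19848 genes of the hairpin table (within 0.001; 100 were at 0) and for all ciclopirox values (within 0.01), and were used only for alternative count tests; with these, edgeR called 5685 genes higher and 5628 lower for shDHX15-1, 5142 and 4988 for shDHX15-2, and 4228 and 3939 for ciclopirox. The ciclopirox table also holds the authors' deposited log2 fold changes and p-values, which were not used. RIP values are the fold per peak and the FDR, an adjusted p-value, of the authors' deposited peak list; thymus values are deposited UMI counts from a Cell Ranger matrix. Without saying what each did, the submitters' processing notes list Cell Ranger 6.0.2 and Scanpy 1.7.1, DESeq2 1.32.0, a pair of STAR versions (2.7.5c and 2.4.1.7) and FastQC 0.11.9, and name mm10, hg38 and hg19 as builds.

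From these, limma 3.58.1 (R 4.3.3, empirical Bayes with trend) was run on log2(RPKM + 1) for 15022 genes at 1 RPKM or more in at least 3 libraries, all 9 hairpin libraries in 1 fit, and on log2(normalised count + 1) for 16825 genes at 10 or more in at least 3 of 6 libraries, both two-sided with Benjamini-Hochberg adjustment over all genes. A fold change on this scale understates that of low genes. Peaks were taken as GRCh38, since 96.7% lay in a coding span and 91.5% on its strand, against 58.6% and 49.4% when moved by 500000 bases. A gene counts as having a peak when its RefSeq span overlaps it. Thymus barcodes with at least 500 genes and under 10% mitochondrial UMIs were clustered with Scanpy 1.11.5 without the 31 genes, and classes with at least 100 cells in each library were compared. Scrublet's own threshold marked 0 barcodes, so doublets stayed in. The limma fits were also run on simulated counts with a fixed spread and no library standing apart. That setting differs from the uneven ciclopirox libraries, so the simulation does not vouch for their calls. All 31 genes are named, and of the neighbouring lists up to 4 called genes per experiment with the largest change, apart from some that are not reported here. The genes and lists were chosen with earlier results of these data known. Alternatives were edgeR 4.0.16 and DESeq2 1.42.0 on recovered reads, other scalings, pseudocounts and filters, a replicate block, single libraries left out, and other thymus thresholds.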

Additional observations from a re-analysis of the deposited data

Results flagged for a closer look

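INSIG1, MSMO1 and SQLE were singled out because the hairpins differed from each other by at least 0.4 on the log2 scale in a direct test with limma. The log2 fold change of shDHX15-2 over shDHX15-1 was 0.73 for INSIG1, −0.49 for MSMO1 and 0.41 for SQLE. The level of MSMO1 was lowest in all 3 shDHX15-2 libraries, while INSIG1 and SQLE were lowest in all 3 shDHX15-1 libraries.

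Idi1, Lss and Acss2 were singled out because the ratio of Dhx15 KO over Dhx15 flox passed 1.5-fold in opposite directions in different thymus classes. The ratio of Idi1 was 0.579 in DN2-3-like cells, 1.54 in DP-like cells and 1.71 in signalled-like cells. That of Lss was 0.666 in DN2-3-like cells, 1.69 in DP-like cells, 2.69 in signalled-like cells and 2.07 in cluster 0. That of Acss2 was 0.572 in cycling-like cells, 0.642 in signalled-like cells and 1.67 in cluster 0. With 1 library per genotype these differences between classes were not tested. Thinned to 2000 UMIs, Idi1 stood at 0.532 in DN2-3-like, 1.42 in DP-like and 1.32 in signalled-like cells, and so passed only downward. Thinned Lss stood at 0.726 in DN2-3-like and 1.29 in DP-like cells and passed in neither. It had too few UMIs to compare in signalled-like cells and in cluster 0. Thinned Acss2 stood at 0.458 in cycling-like and 0.7697 in signalled-like cells, with too few UMIs to compare in cluster 0. In DN2-3-like cells thinned Acss2 passed upward (2.95), from 59 UMIs in Dhx15 KO and 2 in Dhx15 flox. Acss2 thus passed in both directions after thinning, upward only on these few UMIs.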

How the results depend on the processing

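Of 204 alternative counts of members 168 stayed within 1.5 times the reported count and 36 did not; of 2485 alternative values of single genes 2303 kept direction and side of the threshold, 86 lost the call, 44 gained one and 52 changed sign. The counts of genes that fell with either hairpin moved by less than 1.5 times under every alternative run. The count that rose was 2 with shDHX15-1 after quantile normalisation and with the replicate block, 1 with shDHX15-2 after median centring and quantile normalisation, and 1 with the mean of both hairpins after either of these and with edgeR or DESeq2; leaving out single libraries gave 1 to 2 in each. With ciclopirox 5 fell after quantile normalisation, 6 rose after median centring, and 6 to 13 rose with single libraries left out. Same-numbered libraries deviated together by correlations of −0.00061 to 0.095 in the hairpin experiment, and differently numbered ones by −0.12 to 0.047. With ciclopirox the same-numbered values were 0.10, −0.11 and 0.16, and the differently numbered ones −0.29 to 0.18. These values do not settle whether the numbers pair the libraries. The replicate block moved no other count by over 1.5 times.

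In the thymus, a size threshold lowered to a 25% rise or its reciprocal put 2 genes lower over all kept cells, 3 higher and 12 lower in DN2-3-like, 7 lower in DP-like, 3 higher and 5 lower in cycling-like and 6 higher and 9 lower in signalled-like cells, and 6 higher and 4 lower in cluster 0. Thinned to 2000 UMIs, 4 were higher and 7 lower in DN2-3-like, 3 higher in DP-like, 4 higher and 5 lower in cycling-like, 1 higher in signalled-like cells and 3 lower in cluster 0. In alternatives added after seeing the data, leaving out the barcodes with the top 6% of Scrublet scores put 1 gene higher and 1 lower in DN2-3-like cells, and counting cluster 6, in which every DP marker was raised, as DP-like left 1 lower there. For all these thymus alternatives the share over all genes was not counted.

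Of the 52 changes of sign, 1 was of a called value, INSIG1 with ciclopirox. For shDHX15-1 over shGFP, the values with the other sign were after median centring TM7SF2 −0.048, SREBF1 −0.014, and after quantile normalisation TM7SF2 −0.079, and with edgeR on recovered reads TM7SF2 −0.023, and with DESeq2 on recovered reads TM7SF2 −0.031, SREBF1 −0.0050. For shDHX15-2 over shDHX15-1, the values with the other sign were after quantile normalisation MVK 0.025, LSS 0.020, HSD17B7 0.032, SCD −0.043, and after median centring PMVK 0.019, FDPS 0.066, LSS 0.019, HSD17B7 0.0042, EBP 0.053, SREBF2 0.059, and with edgeR on recovered reads PMVK 0.018, FDPS 0.069, LSS 0.015, EBP 0.055, SREBF2 0.062, and with DESeq2 on recovered reads PMVK 0.015, FDPS 0.065, LSS 0.011, EBP 0.051, SREBF2 0.058. With single libraries left out, the range of the log2 fold change there was −0.024 to 0.015 for FDPS, −0.022 to 0.013 for SREBF2. For ciclopirox over DMSO, the values with the other sign were after quantile normalisation HMGCS1 0.11, FDFT1 0.052, MSMO1 0.11, SC5D 0.0076, INSIG1 0.020, and after median centring IDI1 −0.050, NSDHL −0.059, and with edgeR on recovered reads MSMO1 0.032, and with DESeq2 on recovered reads MSMO1 0.011. With single libraries left out, the range of the log2 fold change there was −0.017 to 0.13 for IDI1, −0.11 to 0.13 for MSMO1, −0.047 to 0.13 for NSDHL, −0.18 to 0.042 for SC5D. The cause of these changes was not tested.

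With 3 libraries a group, small values such as those of SC5D, SCAP and SREBF1 lie near the threshold. Thymus values rest on 1 library per genotype, and DN2-3-like cells of Dhx15 flox on 114 cells.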
